A study of Danio rerio with 12 samples.

Results

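The genes described here are the 100 that separated every sorted population of long wavelength-sensing (LWS) cones most widely from the rest of the zebrafish retina, whichever opsin the cones were sorted for. They were chosen from 30258 features by a ranking of CPM (read counts divided by the library's total and scaled alike in all libraries, here after 13 mitochondrially encoded genes and the features of 8 known subtype or LWS marker symbols, opn1lw1, opn1lw2, gngt2a, gngt2b, arr3a, guca1d, thrb and slc32a1, had been removed). A feature needed 5 or more counts in each of 9 LWS cone libraries, which 5109 did, and was scored by the log2 ratio of its lowest cone CPM to its highest CPM in 3 libraries of tdTomato- retinal cells, with 5 CPM added to both. The 100 highest scores are the members.

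The 12 bulk RNA-Seq libraries came from FACS-sorted cells of adult, dark-adapted zebrafish that the labels call wild type (WT) apart from their reporter transgenes, in 4 groups of 3. LWS2 (RFP+) and LWS1 (GFP+) cones came from the lws:PAC(H) line, in which a transgenic copy of the lws opsin locus carries RFP behind the lws2 promoter and GFP behind the lws1 promoter. The tdTomato+ cones and the tdTomato- retinal cells came from the thrb2:tdTomato line, in which the promoter of thyroid hormone receptor beta 2 drives the reporter in LWS cones of both kinds. The tdTomato- cells are the remainder of the dissociated retina, in which rods, other cones, glia and inner retinal neurons are expected, although their cell type label reads cone photoreceptor. The labels do not say which fish gave which library, so p-values measure the spread between these libraries, and the line cannot be told apart from the sort in any comparison across lines. In LWS2 vs LWS1 the reporter, RFP or GFP, differs along with the subtype, so reporter and subtype cannot be told apart either.

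Cones convert light into a fall in transmitter release. Light-activated opsin turns on the G protein transducin, transducin turns on the cone phosphodiesterase, and cGMP falls, so that cation channels of the outer segment close. At the other end of the cell, calcium channels beside a synaptic ribbon set how fast vesicles of glutamate are released. Because rods and all cone types share much of this machinery, a gene can be abundant in LWS cones and still be present in the tdTomato- cells.

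Library depth and purity bear on every value below. Total counts ranged from 459226 (tdTomato- replicate 1) to 3189337, and mitochondrially encoded genes took 12.9 to 13.8% of counts in LWS2, 18.9 to 29.7% in LWS1, 22.0 to 71.7% in tdTomato+ and 53.4 to 54.3% in tdTomato- libraries. A floor of 3 counts equals 14.4 CPM in tdTomato- replicate 1 and at most 6.63 CPM in the others. It covers counting error only, since no molecular identifiers are described for these libraries. On CPM without the mitochondrial genes, thrb was between 1545 and 1794 in LWS2, 1174 and 1975 in LWS1 and 798 and 2123 in tdTomato+ libraries, against 18.9 to 162 in tdTomato- libraries. The subtype opsins were not confined to their own sort. On the same scale, opn1lw1 had 5745 to 10781 CPM in LWS2 libraries, against 28599 to 31587 CPM in LWS1. For opn1lw2 the values were 2128 to 11597 CPM in LWS1 libraries, against 20113 to 23662 CPM in LWS2. The tdTomato- libraries were not free of either opsin, with 213 to 3691 CPM of opn1lw1 and 279 to 4136 CPM of opn1lw2. In bulk samples, fewer cells of a type and less RNA per cell cannot be told apart.

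The distance from the tdTomato- cells is what chose the genes, and it is given as a description only. The score was 1.53 for the first member, cacna2d4a, which equals a ratio of 2.88 between its lowest cone library and its highest tdTomato- library after 5 CPM are added. The median score was 0.60 (a ratio of 1.52), and the last member, arl3l1, had 0.40 (a ratio of 1.32). At the edge of the list the next features after si:ch211-98n17.5 and arl3l1 were HSPA4L and UNC119, both with scores of 0.39, and only 315 of the 5109 features scored above 0, that is, were higher in all 9 cone libraries than in all 3 tdTomato- libraries. No gap in score sets the members apart from the features that follow them.

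**Figure D1:**
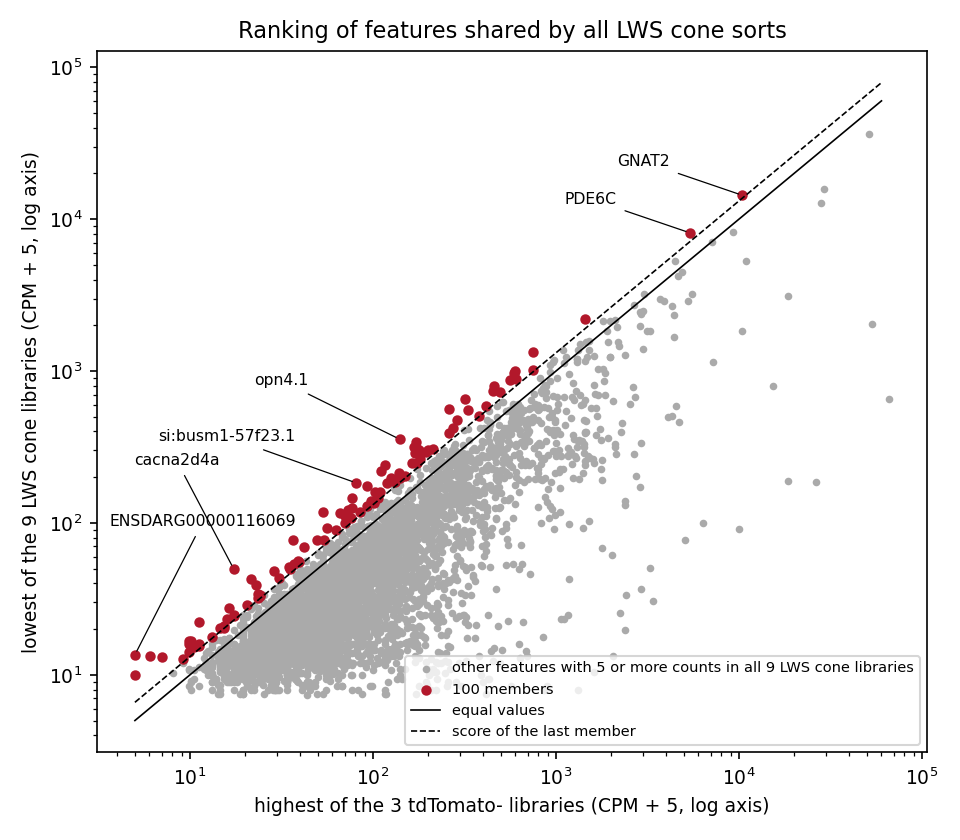
Each point is 1 of 5109 features, with its highest CPM in the 3 tdTomato- libraries on the x axis and its lowest CPM in the 9 LWS cone libraries on the y axis, both plus 5 on log axes. The 100 members in red run along the upper edge of the cloud, from ENSDARG00000116069, at 0 in all tdTomato- libraries, to GNAT2 at up to 10433 CPM in them. The solid line marks equal values and the dashed line the score of the last member.

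The members had 6.60 to 6.69% of the counts behind the CPM in LWS2, 6.79 to 7.31% in LWS1 and 5.43 to 5.96% in tdTomato+ libraries, against 1.59 to 2.93% in tdTomato- libraries. Their median cone CPM ran from 8.29 to 15216, with 22 members below 50 CPM. Symbols were given for 54 members by the deposited tables and for 42 by a name table, and 4 had none. Upper-case symbols such as GNAT2 and PDE6C are spelled as that table gives them for the zebrafish features.

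By their textbook roles, many members can be placed along the cone, from the light response to the synapse, and phototransduction comes first. GNAT2, the cone transducin alpha subunit, had 15205, 15216 and 14607 CPM in LWS2, 15389, 16863 and 19212 CPM in LWS1 and 14327, 17313 and 15133 CPM in tdTomato+ libraries, against 4331, 8652 and 10433 CPM in tdTomato- libraries. The 9 cone libraries span only 1.34-fold, the narrowest range of the 100 members. The tdTomato- libraries, which hold the other cone types and had some counts of the lws opsins, also had high values. PDE6C, the catalytic subunit of the cone phosphodiesterase, had 10324, 10994 and 10213 CPM in LWS2, 10496, 10549 and 10689.6 CPM in LWS1 and 8901, 8114 and 9561 CPM in tdTomato+ libraries, against 2734, 3843 and 5382 CPM in tdTomato- libraries. Its cone libraries span 1.35-fold, and its 3 tdTomato+ libraries all lie below the other 6.

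The remaining phototransduction members regulate the cascade rather than carry it. gnb5b encodes the G protein beta 5 subunit that works with RGS9 to switch transducin off, and it averaged 1530.2 ± 30.7 CPM in LWS2, 1223 ± 104 CPM in LWS1 and 1128 ± 461 CPM in tdTomato+, against 364 ± 136 CPM in tdTomato- libraries (SD, n = 3 each). rcvrn3, a recoverin, the calcium sensor that restrains opsin kinase, had 4149, 2453 and 3363 CPM in LWS2, 6359, 4029 and 5074 CPM in LWS1 and 3486, 1791 and 1336 CPM in tdTomato+ libraries, against 746, 630.3 and 629 CPM in tdTomato- libraries. It was less even than the transducin and phosphodiesterase subunits, with a span of 4.76-fold over the cone libraries. ric8a, a chaperone of G protein alpha subunits, averaged 1128 ± 216 CPM in LWS2, 1007 ± 246 CPM in LWS1, 989.6 ± 207 CPM in tdTomato+ and 325 ± 122 CPM in tdTomato- libraries (SD, n = 3 each). Of 51 phototransduction symbols listed for the series, 47 were matched and these 4, all but ric8a, are members.

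The next role is the outer segment, its matrix and the cilium that joins it to the cell body. impg1b and impg2b encode proteoglycans of the matrix between photoreceptors. impg1b had 151, 154 and 159.7 CPM in LWS2, 226, 113 and 163 CPM in LWS1 and 126, 116 and 235 CPM in tdTomato+ libraries, against 48.1, 22.7 and 39 CPM in tdTomato- libraries. Its 3 LWS2 libraries are nearly equal, and 2 LWS1 libraries and 1 tdTomato+ library stand above them. impg2b averaged 157 ± 28.9 CPM in LWS2, 259 ± 153 CPM in LWS1, 197 ± 20.6 CPM in tdTomato+ and 64.8 ± 38.3 CPM in tdTomato- libraries (SD, n = 3 each), and a second feature with the same symbol, which is no member, averaged 89.3 CPM in LWS2, 145 CPM in LWS1, 126 CPM in tdTomato+ and 51.7 CPM in tdTomato- libraries. How reads were divided between such copies is uncertain.

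The 3 members with the widest spans over the cone libraries, traf3ip1, prph2la and TULP1, have roles in the cilium and the outer segment. prph2la is a peripherin 2-like gene, whose mammalian relative shapes disc rims, and had 33.2, 59.4 and 62.3 CPM in LWS2, 47.4, 116 and 183 CPM in LWS1 and 18.2, 31.7 and 83.7 CPM in tdTomato+ libraries, against 0, 11 and 8.21 CPM in tdTomato- libraries. TULP1, a tubby-like protein needed in mammals for the transport of proteins to the outer segment, had 205, 116 and 180.4 CPM in LWS2, 413, 95.4 and 473 CPM in LWS1 and 48.3, 71.2 and 103 CPM in tdTomato+ libraries, against 19.3, 30.2 and 31.8 CPM in tdTomato- libraries. Both are highest in LWS1 replicate 3, the cone library with the fewest counts, and both overlap between LWS2 and LWS1. traf3ip1, a component of intraflagellar transport, had the widest span of any member, 13.7-fold, which rests on 106 CPM in LWS1 replicate 3 against 27.6 CPM or less in the other 8 cone libraries. arl3l1, an Arl3-like small GTPase, averaged 765 ± 52.2 CPM in LWS2, 815 ± 92.6 CPM in LWS1, 861 ± 532 CPM in tdTomato+ and 272 ± 97.1 CPM in tdTomato- libraries (SD, n = 3 each). fscn2b, an actin-bundling fascin, was among the more even members, with 1121, 1219 and 1168 CPM in LWS2, 1082, 1191 and 1197 CPM in LWS1 and 955, 652 and 677 CPM in tdTomato+ libraries, against 111, 262 and 314 CPM in tdTomato- libraries. Its 6 LWS2 and LWS1 libraries all lie above the 3 tdTomato+ libraries.

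A further role, calcium entry and the vesicle cycle at the synapse, held 11 members, more than any other role assigned here. cacna2d4a, the member ranked first, encodes an alpha2delta subunit of voltage-gated calcium channels, which in mammals serves photoreceptor synapses. It had 80.1, 73.7 and 68.3 CPM in LWS2, 194, 109 and 108 CPM in LWS1 and 47.8, 44.9 and 168 CPM in tdTomato+ libraries, against 0, 4.81 and 12.3 CPM in tdTomato- libraries. All LWS1 libraries lie above all LWS2 libraries. Of the tdTomato+ libraries, replicates 1 and 2 lie below all LWS2 libraries, and replicate 3 lies within the range of LWS1. A second feature named cacna2d4a, outside the list, averaged 197 CPM in LWS2, 343 CPM in LWS1, 232 CPM in tdTomato+ and 69.4 CPM in tdTomato- libraries, so the same order of the cone sorts is seen in both.

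Genes of vesicle docking and fusion followed. stxbp1b, a Munc18 protein that holds syntaxin ready for fusion, had 418, 429.8 and 449 CPM in LWS2, 519, 630.3 and 484 CPM in LWS1 and 470.3, 514 and 427 CPM in tdTomato+ libraries, against 96.3, 200.5 and 267 CPM in tdTomato- libraries, and spans 1.51-fold over the cones. sv2ba, a vesicle glycoprotein, averaged 416 ± 30.9 CPM in LWS2, 504 ± 50.2 CPM in LWS1, 361 ± 53.7 CPM in tdTomato+ and 169 ± 55.2 CPM in tdTomato- libraries (SD, n = 3 each). STX3, the syntaxin of mammalian ribbon synapses, averaged 37 ± 0.808 CPM in LWS2, 44.2 ± 21.2 CPM in LWS1, 26.9 ± 3.11 CPM in tdTomato+ and 7.31 ± 4.33 CPM in tdTomato- libraries. The vesicle SNARE gene vamp2 averaged 73.7 ± 6.26 CPM in LWS2, 89.6 ± 40.1 CPM in LWS1, 65 ± 12.6 CPM in tdTomato+ and 24.7 ± 8.13 CPM in tdTomato- libraries, and SYNGR1, a synaptogyrin, 32.8 ± 8.97 CPM in LWS2, 35.2 ± 20.9 CPM in LWS1, 26.5 ± 20.2 CPM in tdTomato+ and 5.37 ± 0.715 CPM in tdTomato- libraries. STX3 and SYNGR1 had 4.81 CPM, a single count, in tdTomato- replicate 1, so their level there is set by counting error.

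Endocytosis, which returns vesicle membrane, was represented by sh3gl2a (endophilin A1), by AMPH (amphiphysin) and by necap1, an adaptor-binding protein that falls outside the naming rule and was named after its values were seen, as were all members below that belong to none of the fixed lists and are not among the 20 ranked highest, and traf3ip1, ric8a, AMPH and lin7c. sh3gl2a had 475, 494 and 503 CPM in LWS2, 632, 402 and 466 CPM in LWS1 and 336, 313 and 313 CPM in tdTomato+ libraries, against 77, 58.4 and 162 CPM in tdTomato- libraries. Each of its 6 LWS2 and LWS1 values lies above its 3 tdTomato+ values. lrit3a, a leucine-rich repeat protein that in mammals acts across the photoreceptor synapse, averaged 300.1 ± 21.3 CPM in LWS2, 293 ± 114 CPM in LWS1, 329 ± 127 CPM in tdTomato+ and 109 ± 23.8 CPM in tdTomato- libraries (SD, n = 3 each). Of 53 ribbon synapse and release symbols, 51 were matched and 7 are members.

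Receptors for light and transmitters formed a small group. opn4.1, a melanopsin, the opsin of intrinsically photosensitive cells, had a score of 1.35, with 479, 651 and 609 CPM in LWS2, 956, 894 and 979 CPM in LWS1 and 351, 429 and 643 CPM in tdTomato+ libraries, against 135, 117 and 134 CPM in tdTomato- libraries. The LWS1 libraries are the highest 3 of the 12 and do not overlap with any other group. GABRA6 encodes a subunit of the GABA-A receptor, by which cones can respond to GABA. It had 1143, 1157 and 1276 CPM in LWS2, 1026, 970.3 and 886 CPM in LWS1 and 866, 898 and 1375 CPM in tdTomato+ libraries, against 303, 499.8 and 557 CPM in tdTomato- libraries. drd4a, a D4 dopamine receptor, had 41.5, 54.5 and 65.5 CPM in LWS2, 54.1, 40.1 and 50.8 CPM in LWS1 and 38.4, 108 and 115 CPM in tdTomato+ libraries, against 9.63, 19.9 and 25.7 CPM in tdTomato- libraries, with tdTomato+ replicates 2 and 3 above every lws:PAC(H) library.

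**Figure D2:**
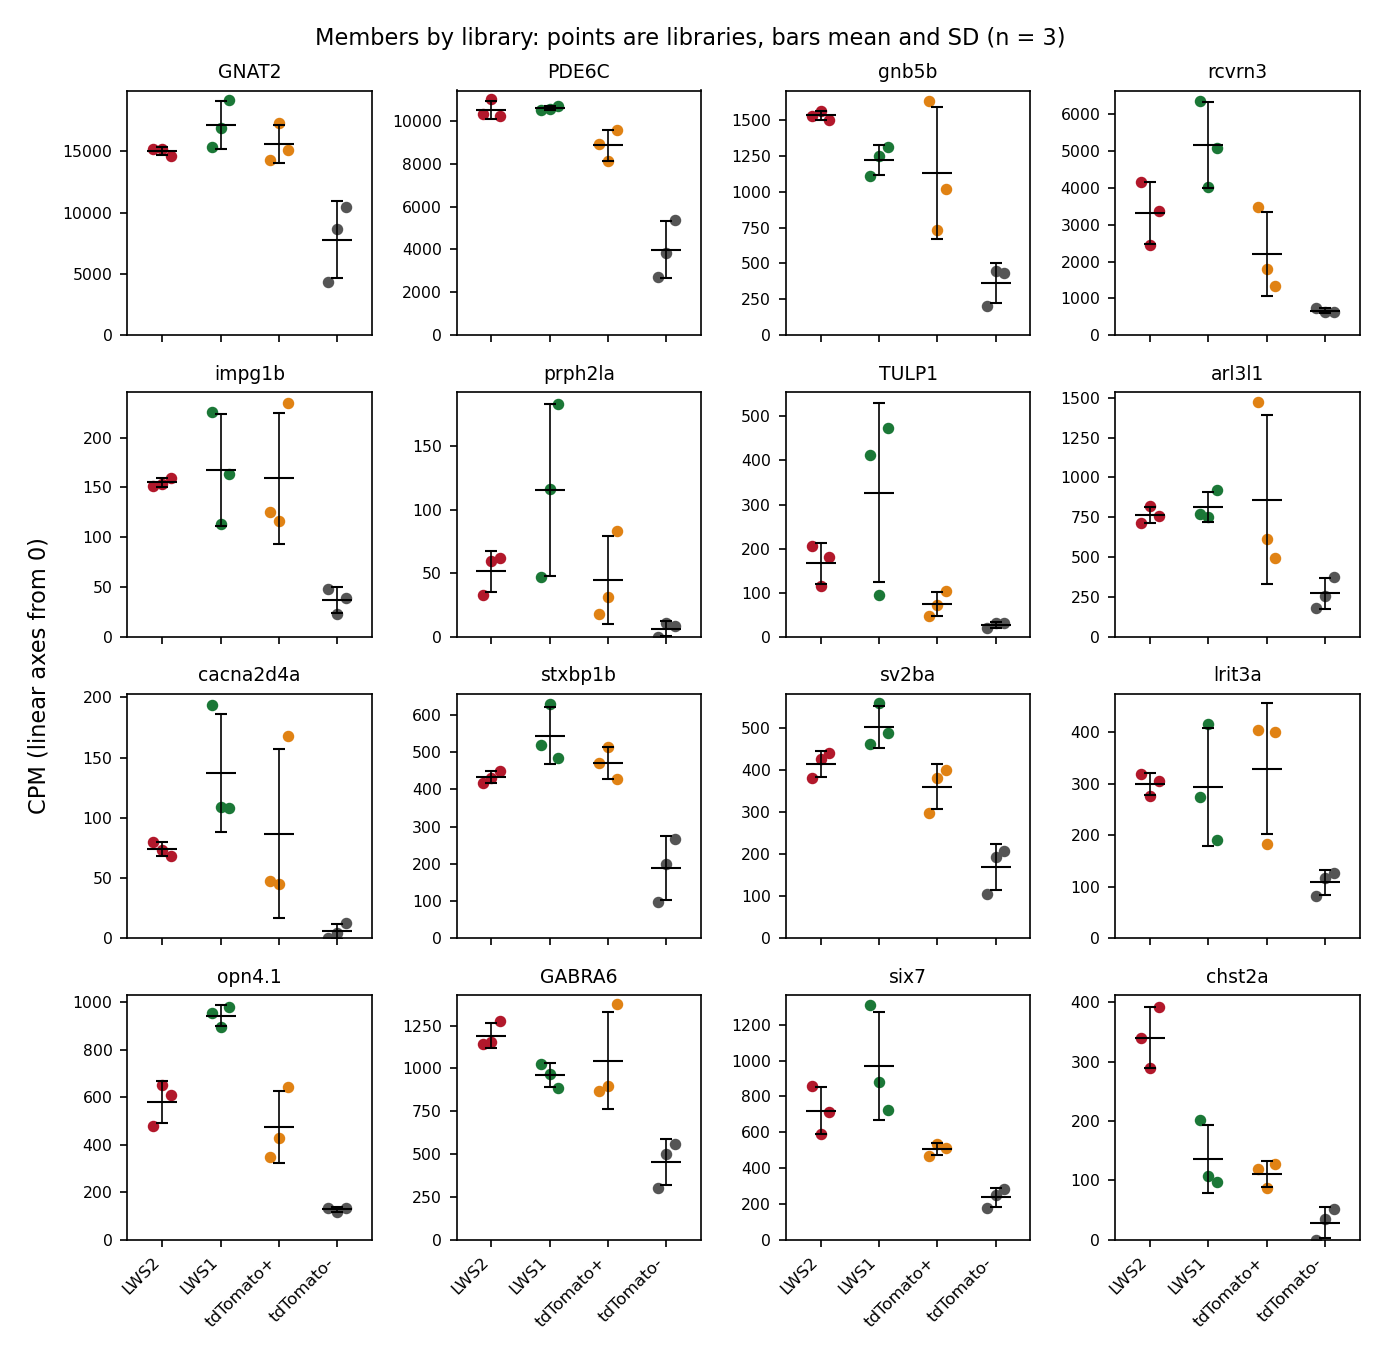
Panels show the CPM of 16 members on linear axes from 0, in the order LWS2, LWS1, tdTomato+ and tdTomato- with 3 libraries each; points are libraries and bars the mean and SD. GNAT2 and PDE6C are even over the 9 cone libraries, opn4.1 is highest in all 3 LWS1 libraries, chst2a is highest in all 3 LWS2 libraries, and TULP1 runs between 95.4 and 473 CPM within LWS1.

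Regulators of transcription and chromatin made up 4 members, and thrb could not be a member, since the rule removed it before the ranking. six7, a homeobox gene of cone identity in zebrafish and the only member among 53 listed photoreceptor transcription factor symbols (50 matched), had 856, 592 and 714 CPM in LWS2, 1309, 879 and 727 CPM in LWS1 and 469, 536 and 515 CPM in tdTomato+ libraries, against 178, 249.9 and 284 CPM in tdTomato- libraries. It also stands on the list of green cone markers. rx2, a retinal homeobox gene, averaged 137 ± 41.8 CPM in LWS2, 182 ± 78.5 CPM in LWS1, 75.2 ± 33.5 CPM in tdTomato+ and 31.3 ± 2.77 CPM in tdTomato- libraries (SD, n = 3 each). hmga1b, a chromatin architectural protein, averaged 418 ± 52.8 CPM in LWS2, 475 ± 86 CPM in LWS1, 339.7 ± 27.6 CPM in tdTomato+ and 128 ± 46.2 CPM in tdTomato- libraries. leo1, a subunit of the PAF1 elongation complex, averaged 251 ± 18.3 CPM in LWS2, 376 ± 71.8 CPM in LWS1, 205 ± 20.1 CPM in tdTomato+ and 120.4 ± 25.1 CPM in tdTomato- libraries (SD, n = 3 each).

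Among the 20 highest-ranked members with a symbol, several belong to none of these groups. si:busm1-57f23.1, predicted to encode a secreted protease inhibitor, had 497, 657 and 613 CPM in LWS2, 379, 178 and 932 CPM in LWS1 and 333, 504 and 407 CPM in tdTomato+ libraries, against 9.63, 47.4 and 76 CPM in tdTomato- libraries. Its LWS1 libraries span both the lowest and the highest of the 9 cone values. got1, the cytosolic aspartate aminotransferase, had 622, 678 and 726 CPM in LWS2, 644, 559.8 and 837 CPM in LWS1 and 683, 607 and 557 CPM in tdTomato+ libraries, against 86.6, 256 and 228 CPM in tdTomato- libraries. The cone values of got1 span 1.5-fold, with all 3 sorts overlapping. SIK1, a salt-inducible kinase, had 489, 598 and 541 CPM in LWS2, 516, 412 and 362 CPM in LWS1 and 271, 214 and 214 CPM in tdTomato+ libraries, against 67.4, 104 and 106 CPM in tdTomato- libraries, so that tdTomato+ lies below both lws:PAC(H) sorts.

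The rest of the 20 were ppp4r4 (a regulatory subunit of protein phosphatase 4), usp32 (a ubiquitin peptidase), CAMSAP1 (which binds microtubule minus ends), synm (synemin, an intermediate filament protein), tbc1d10aa (a Rab GTPase-activating protein), ARHGAP11A (a GTPase-activating protein), ext1c (an exostosin of heparan sulfate synthesis), si:dkey-72l14.3 and si:dkeyp-57d7.4. ppp4r4 averaged 89.2 ± 16.3 CPM in LWS2, 161 ± 26.6 CPM in LWS1, 136 ± 25.4 CPM in tdTomato+ and 19.7 ± 13.6 CPM in tdTomato- libraries (SD, n = 3 each). ARHGAP11A had 63.5, 52 and 74.2 CPM in LWS2, 42.7, 35.9 and 37.6 CPM in LWS1 and 32.5, 9.23 and 8.01 CPM in tdTomato+ libraries, against 0, 0 and 2.05 CPM in tdTomato- libraries. It is 1 of 4 members with 3 or fewer counts in each of the 3 tdTomato- libraries; the others are ext1c, ENSDARG00000116069 and 1 further feature with no symbol. In tdTomato- replicate 1, the shallowest library, 38 members were at 3 or fewer counts and 16 at 0, against 4 at 0 in tdTomato- replicate 2 and 3 in replicate 3.

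Calcium sensors and kinases, cytoskeletal genes and metabolic enzymes made up 20 members, of which SIK1 and got1 are described above. The 7 calcium sensors and kinases spanned 1.68-fold (ncaldb, a neurocalcin) to 4.25-fold (grk3, a G protein-coupled receptor kinase) over the cone libraries. calm3a, a calmodulin, averaged 469.7 ± 40.7 CPM in LWS2, 429 ± 71.1 CPM in LWS1, 349 ± 100.2 CPM in tdTomato+ and 142 ± 52.3 CPM in tdTomato- libraries (SD, n = 3 each). camk2d1, a calcium and calmodulin-dependent kinase II, had 341, 581 and 495 CPM in LWS2, 389, 789 and 329 CPM in LWS1 and 297, 879.9 and 1014 CPM in tdTomato+ libraries, against 125, 124 and 194 CPM in tdTomato- libraries. All 3 cone sorts overlap. The 8 cytoskeletal members spanned 1.80-fold to 5.76-fold. Of these inaa, an internexin of neuronal intermediate filaments, had 4077, 4129 and 3789.9 CPM in LWS2, 3348, 3169 and 4197 CPM in LWS1 and 3565, 2179 and 2989 CPM in tdTomato+ libraries, against 573, 1157 and 1429 CPM in tdTomato- libraries. Its LWS1 libraries overlap both other sorts, and its LWS2 libraries exceed its tdTomato+ libraries. Among enzymes, ARG2, a mitochondrial arginase, had 2764, 2636 and 2626 CPM in LWS2, 3476, 2012 and 2980 CPM in LWS1 and 2333, 1208 and 1018 CPM in tdTomato+ libraries, against 582, 739 and 685 CPM in tdTomato- libraries, and its LWS2 libraries all exceed its tdTomato+ libraries.

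The ranking read the lowest cone library, which is also the lower end of the span over the cone libraries, so that a high score itself favours a narrow span and a small coefficient of variation. The values that follow describe the list, and nothing is read from them. Over the 9 cone libraries the members had a median coefficient of variation of 32.8% and a median span of 2.68-fold, against 37.9% and 3.38-fold for all 5109 features with 5 or more counts. The span was under 2-fold in 21 of 100 members (21%), against 10.4% of the 5109, and over 5-fold in 13 members. The members are also more abundant, with a median of 178 CPM over the cone libraries, against 48.3 CPM.

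The library that was lowest, and so set the score, was a tdTomato+ library for 75 members, an LWS1 library for 17 and an LWS2 library for 8. By replicate, tdTomato+ replicate 2, with 71.7% mitochondrial counts, was lowest for 32, tdTomato+ replicate 1 for 30 and replicate 3 for 13. The highest cone library was LWS1 for 49 members, tdTomato+ for 32 (replicate 3 in 22 of them) and LWS2 for 19. On the other side of the ratio, tdTomato- replicate 3 was the highest of its group for 55 members, replicate 2 for 27 and replicate 1 for 18. Replicates were closest in LWS2, where the median coefficient of variation of the members was 11.1%, against 26.5% in LWS1, 32.5% in tdTomato+ and 38.4% in tdTomato- libraries (98 members with a count in the last), and the LWS2 libraries were also among the deepest.

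**Figure D3:**
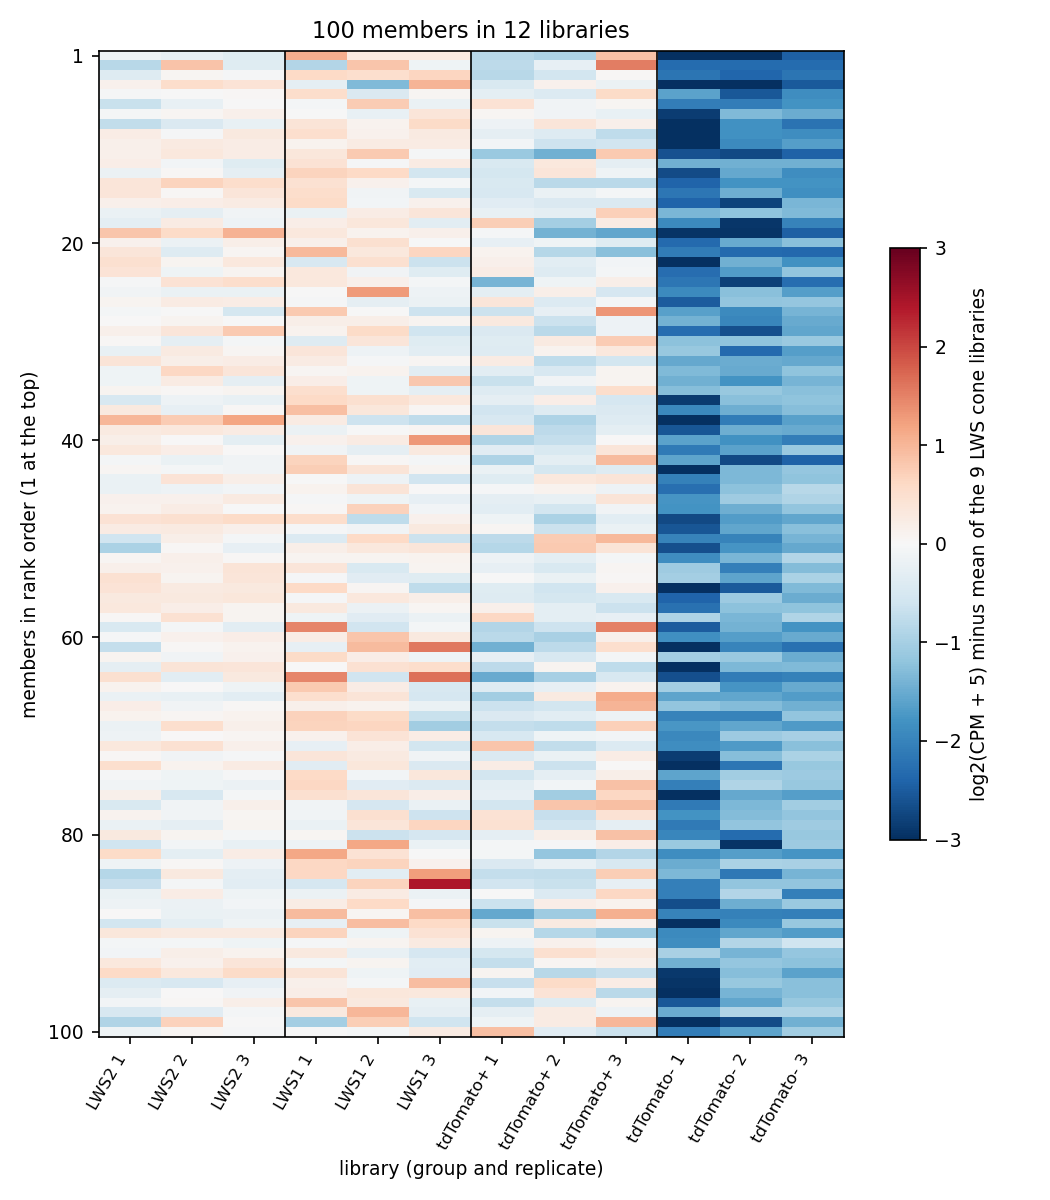
Rows are the 100 members in rank order and columns the 12 libraries; colour is log2(CPM + 5) minus the mean of the 9 LWS cone libraries, limited to 3 in either direction. The LWS2 columns differ least among themselves (median coefficient of variation 11.1%), tdTomato+ columns hold the lowest cone value of 75 members, and the tdTomato- columns are blue in every row, as the ranking requires.

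Membership itself depends on single libraries. When each of the 12 libraries was left out in turn and the ranking repeated, 62 to 100 of the members stayed, and 49 members stayed in all 12 lists. Leaving out tdTomato- replicate 3 kept 62, tdTomato- replicate 1 kept 65, tdTomato+ replicate 1 kept 67, tdTomato- replicate 2 kept 69 and tdTomato+ replicate 2 kept 80. With the mitochondrial genes kept in the totals, 42 of the 100 stayed, and with group means in place of the lowest and highest library, 49.

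Whether the shared genes also differ between LWS2 and LWS1 cones was asked with the quasi-likelihood test of edgeR on all features, with Benjamini-Hochberg adjustment and a call at an FDR under 0.05 and a fold change above 2. The ranking did not use these contrasts, but it read the lowest value of the same 9 libraries. It thus favoured features that are low in no sort, which works against large differences between sorts. The share of listed features on each side of 0 also differed with the libraries that ranked the list, as given below. Counts of calls and of directions below are therefore descriptions of the list, and few calls are no result about the members. The p-values of single members carry the same limit. In LWS2 vs LWS1, where 8432 features including all 100 members were tested, 0 members were called higher in LWS2 (1.2% of all features were) and 0 were called lower (0.605%). At an unadjusted p under 0.05, 2 members were higher in LWS2 (7.19% of all features) and 25 were lower (7.38%). DESeq2 called 1 member higher, chst2a, and 2 lower, ppp4r4 and cacna2d4a, where it called 1.51% of all features higher and as large a share lower.

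Without the fold limit, 2 members passed the FDR, both lower in LWS2 than in LWS1 (0.712% of all features). opn4.1, the melanopsin whose values are given above, fell by 0.85 on the log2 scale (SE 0.18, adjusted p = 0.0446 by edgeR), a level 1.80-fold lower in LWS2, and 3 of 3 LWS2 libraries lie below every LWS1 library. camk1b, a calcium and calmodulin-dependent kinase I, had 123, 155 and 148 CPM in LWS2 and 265, 245 and 216 CPM in LWS1 libraries, with no overlap. It fell by 0.91 on the log2 scale (SE 0.20, adjusted p = 0.0495 by edgeR), or 1.87-fold. Both values were close to the threshold: over fits that each lacked 1 of the 6 libraries, the edgeR adjusted p ran from 0.0541 to 0.287 for opn4.1 and from 0.0714 to 0.332 for camk1b, while DESeq2 on all 6 libraries gave 0.000286 and 0.000476. With all 4 groups in 1 edgeR fit the adjusted p was 0.399 for opn4.1 and 0.488 for camk1b.

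The largest difference in the other direction was that of chst2a, a sulfotransferase that acts on carbohydrate chains. It had 339.9, 289 and 392 CPM in LWS2, 201, 108 and 97.2 CPM in LWS1 and 118.7, 87.1 and 128 CPM in tdTomato+ libraries, against 0, 35.7 and 51.3 CPM in tdTomato- libraries. The 3 LWS2 libraries exceed all 9 others. Its log2 fold change in LWS2 vs LWS1 was 1.19 (SE 0.27, edgeR adjusted p = 0.0545), which missed the threshold, while DESeq2 gave an adjusted p of 0.00502, and leaving out LWS1 replicate 1, its highest LWS1 library, gave 1.53 with an edgeR adjusted p of 0.0228. For cacna2d4a the log2 value was -1.02 (SE 0.27, edgeR adjusted p = 0.113) and for ppp4r4 -0.99 (SE 0.25, edgeR adjusted p = 0.0942), and both were called by DESeq2 at adjusted p-values of 0.0272 and 0.0126. prph2la had -1.31 (SE 0.48, edgeR adjusted p = 0.251) and traf3ip1 -2.20 (SE 0.80, edgeR adjusted p = 0.242). Leaving out 1 library at a time gave -1.74 to -0.74 for prph2la and -2.75 to -0.77 for traf3ip1, with the value nearest 0 in both without LWS1 replicate 3.

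As a list, the members stood lower in LWS2 than all features did. The edgeR log2 fold change of LWS2 vs LWS1 was below 0 in 70 of 100 members (51.3% of all features, and 57.0% of those with 5 or more counts in all 9 cone libraries), with a median of -0.28, against -0.02 over all features and -0.09 over those with 5 or more counts. By role, as a description with no test and with roles assigned after values were seen, the value was negative in all 11 synaptic members (median -0.42), all 7 of the outer segment, matrix and cilium (median -0.87), all 4 of transcription and chromatin (median -0.54), all 5 of metabolism (median -0.21), 6 of 7 calcium sensors and kinases (median -0.24) and 5 of 8 cytoskeletal members (median -0.40). It was negative in 3 of 5 phototransduction members (median -0.15), with gnb5b at 0.18 (SE 0.17, edgeR adjusted p = 0.685), and in 1 of 4 receptors, opn4.1 (median of the 4 0.09).

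Scaling and choice of libraries both bear on that median. On CPM, without edgeR's TMM scaling, the median over all tested features was 0.12 and that of the members -0.14, with 64 of 100 members below 0, so the values stand 0.14 higher while the distance from all features is much the same. Groups did not overlap on the CPM scale in 8 members that were higher in LWS2 (17.3% of all features) and 17 that were lower (5.33%). When a list of 100 was ranked from the tdTomato+ and tdTomato- libraries alone, with no LWS2 or LWS1 library, 59 members were on it, and 52 of its 95 tested features were below 0, with a median of -0.14 and 6 features higher and 15 lower at an unadjusted p under 0.05. Lists fixed by function, not by this ranking, had negative medians as well, although they hold some of the members. Cone phototransduction (4 members) had -0.26 over 44 tested features (31 below 0, 3 called higher, 5 lower). The outer segment and cilium (5 members) had -0.34 over 50 (39 below 0, 0 called in either direction). The ribbon synapse (7 members) had -0.38 over 38 (28 below 0, 1 called higher, 1 lower). LWS cone markers (3 members), a list that holds both lws opsins, had -0.34 over 15 (11 below 0, 1 called higher, 4 lower). They summed to 85060 to 98811 CPM in LWS2 and 104547 to 121629 CPM in LWS1 libraries, with no overlap. Negative medians were not limited to cone functions. Markers of other cells had them too, among them rod (-0.46, 16 tested), Muller glia (-0.71, 12 tested) and bipolar markers (-0.93, 8 tested). Green cone (0.09, 5 tested) and horizontal markers (0.08, 2 tested) had positive medians, and the 1 red blood cell marker tested had 1.26. Rod markers summed to 3359 to 6408 CPM in LWS2 and 4532 to 8665 CPM in LWS1 libraries, over 19 features of which all had counts, and Muller glia markers, of which 17 of 21 features had counts, to 835 to 2275 CPM in LWS2 and 1324 to 2787 CPM in LWS1 libraries, and the mitochondrial shares given above were lower in LWS2. The sums of UV and green cone markers stood the other way, with no overlap in either. UV cone markers summed to 10239 to 11105 CPM in LWS2 and 4833 to 6175 CPM in LWS1 libraries. The UV opsin opn1sw1 itself overlapped, at 232 to 373 CPM in LWS2 and 167 to 617 CPM in LWS1 libraries. Most of the UV sum thus came from other features of that list. Green cone markers summed to 6005 to 7648 CPM in LWS2 and 4236 to 5630.0 CPM in LWS1 libraries. Of the green opsins only opn1mw2 did not overlap, at 2544 to 4512 CPM in LWS2 and 1057 to 2310 CPM in LWS1 libraries. Blue cone sums overlapped, at 1086 to 2640 CPM in LWS2 and 876 to 2390 CPM in LWS1 libraries. By single features the picture was mixed. The edgeR log2 fold change was negative in 3 of 4 tested UV cone features (median -0.32). It was also negative in 2 of 2 blue cone features (median -0.49) and 2 of 5 green cone features (median 0.09). The part of these values in the result was not tested.

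**Figure D4:**
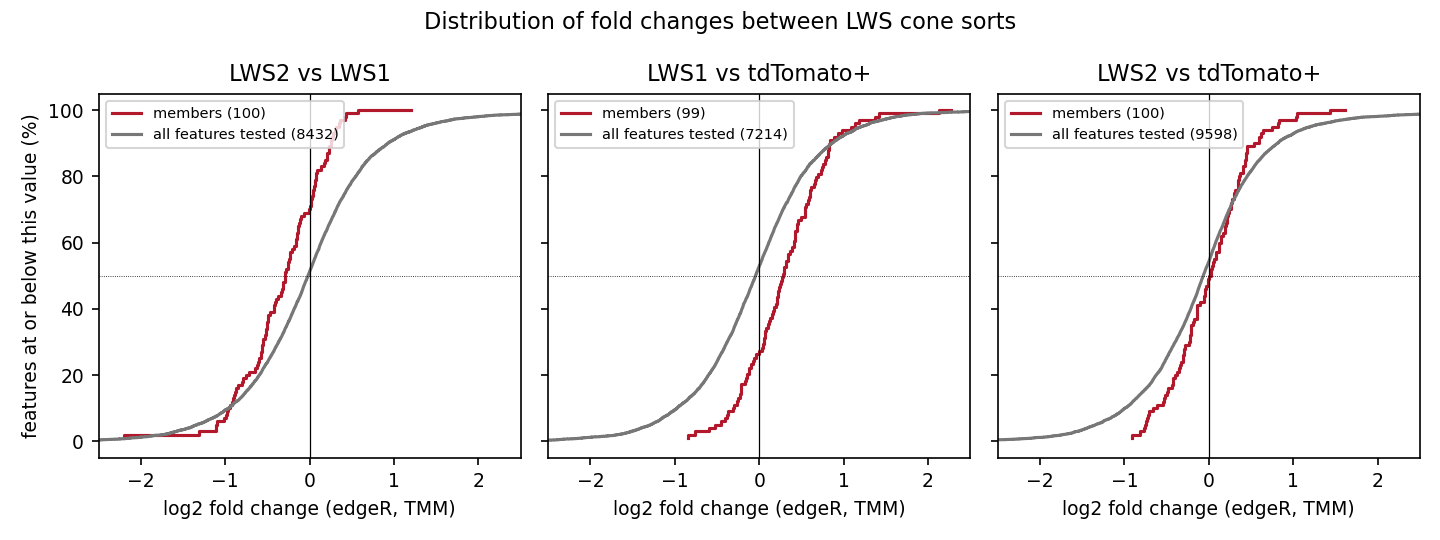
Curves give the percentage of features at or below each edgeR log2 fold change (x axis, limited to 2.5 in either direction) for the members in red and all features tested in grey, in LWS2 vs LWS1, LWS1 vs tdTomato+ and LWS2 vs tdTomato+. The members' curve is left of all features in LWS2 vs LWS1 (median -0.28 against -0.02), right of them in LWS1 vs tdTomato+ (0.29 against -0.04), and close to them in LWS2 vs tdTomato+ (0.03 against -0.06), where it is the steeper of the pair.

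The comparisons with tdTomato+ cones ask how the sorts of 1 subtype stand against a sort of all LWS cones. In LWS1 vs tdTomato+, 99 members were among 7214 features tested, and 0 were called higher (0.0139% of all features) or lower (0.0%). At an unadjusted p under 0.05, 10 were higher in LWS1 (2.44%) and 0 lower (2.94%). DESeq2 called 1 member higher (0.338% of all features), TULP1, at an adjusted p of 0.0277, and 0 lower (0.25%). TULP1 had an edgeR log2 fold change of 2.13 (SE 0.54, adjusted p = 0.326). The members' values were above 0 in 74 of 99 (47.2% of all features), with a median of 0.29 against -0.04, and in 19 the groups did not overlap with LWS1 higher (5.45%), against 0 with LWS1 lower (4.44%). Among them opn4.1 had 0.98 (SE 0.35, edgeR adjusted p = 0.69), rcvrn3 1.14 (SE 0.46, 0.767), rx2 1.18 (SE 0.47, 0.755) and six7 0.89 (SE 0.35, 0.745), none past the threshold.

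The size of that median differed with the libraries that ranked the list. In a list ranked without tdTomato+ libraries, which set the score of 75 members, 56 members were shared and the median in LWS1 vs tdTomato+ was 0.69. In the list ranked without LWS2 and LWS1 libraries the same median was 0.05. Rod marker sums in tdTomato+ libraries were 10364 to 24878 CPM, against 29004 to 62571 CPM in tdTomato- libraries. Muller glia sums in tdTomato+ libraries were 296 to 2752 CPM, against 11973 to 23687 CPM in tdTomato- libraries. Sums of the other cone types overlapped between these groups. They were 11304 to 16953 CPM in tdTomato+ and 15105 to 38672 CPM in tdTomato- libraries for UV cones. For blue cones they were 3417 to 7135 and 3695 to 17434 CPM, and for green cones 3683 to 15459 and 11339 to 12217 CPM. Of the single opsins, opn1sw2, opn1mw1 and opn1mw2 overlapped too. The UV opsin opn1sw1 did not, at 953 to 2930 CPM in tdTomato+ and 8278 to 25820 CPM in tdTomato- libraries. Nor did opn1mw3 and opn1mw4, which were lower in tdTomato+ libraries. Rod, UV and blue cone sums were lower in LWS1 than in tdTomato+ libraries, with no overlap. They were 4532 to 8665, 4833 to 6175 and 876 to 2390 CPM in LWS1. Green cone and Muller glia sums overlapped, at 4236 to 5630 and 1324 to 2787 CPM in LWS1. All 16 rod features tested were negative in LWS1 vs tdTomato+ (median -1.16) and in LWS2 vs tdTomato+ (median -1.68). Of 12 Muller glia features, 1 was negative in LWS1 vs tdTomato+ (median 0.61). The part of these other cells in the members' values was not tested.

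LWS2 vs tdTomato+ gave 0 members called higher (0.708% of 9598 features) and 0 lower (0.135%), with 6 higher (4.93%) and 1 lower (5.11%) at an unadjusted p under 0.05, and DESeq2 called 1 higher, chst2a (1.23% of all features), and 0 lower (0.869%). Values were above 0 in 52 of 100 members (45.8% of all features), and the median was 0.03 against -0.06. chst2a had the smallest p, with a log2 fold change of 1.44 (SE 0.29, edgeR adjusted p = 0.0582), followed by SIK1 at 1.03 (SE 0.29, edgeR adjusted p = 0.202). Groups did not overlap in 23 members that were higher in LWS2 (15.2%) and 2 that were lower (3.25%), on a CPM scale whose median stands 0.17 above that of edgeR. Leaving out tdTomato+ replicate 1 changed these counts to 5 called higher (chst2a, SIK1, ARHGAP11A, ARG2 and ide), beside 2.29% of all features in that fit, and 3 called lower (drd4a, camk2d1 and ppp1r18), beside 3.11%, whereas 0 were called in either direction when tdTomato+ replicate 2 or 3 was left out, fits in which at most 0.136% of all features were called in a direction.

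The 3 comparisons share libraries in pairs, so the members' values in them are not separate evidence. For opn4.1, the log2 fold change was -0.85 in LWS2 vs LWS1 and 0.98 in LWS1 vs tdTomato+, both of which contain the LWS1 libraries. For chst2a it was 1.19 in LWS2 vs LWS1 and 1.44 in LWS2 vs tdTomato+, both of which contain the LWS2 libraries. For TULP1 it was 2.13 in LWS1 vs tdTomato+ and 1.04 in LWS2 vs tdTomato+ (SE 0.34, edgeR adjusted p = 0.311), which share the tdTomato+ libraries.

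In 13 members the symbol belongs to more than 1 feature, among them cacna2d4a, impg2b, synm, CAMSAP1, GABRA6, STX3, SYNGR1, SNX19, TMEM120A, FAM167A, INPP5K and LGALSL. For GABRA6, SYNGR1, TMEM120A and LGALSL the other feature had at most 3 counts in any library. STX3 differs: its other feature averaged 57.9 CPM in LWS2, 39.4 CPM in LWS1, 28.3 CPM in tdTomato+ and 38.9 CPM in tdTomato- libraries. That feature is thus not above the tdTomato- cells in every cone sort, while the member feature is. The other CAMSAP1 feature likewise averaged 23.7 CPM in LWS2, 29.0 CPM in LWS1 and 32.0 CPM in tdTomato+ libraries, against 52.1 CPM in tdTomato- libraries.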

How the data were processed

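Counts from 12 bulk RNA-Seq libraries (4 groups of 3, grouped by their labels) were used. The deposited counts are whole numbers for 30258 features, not normalized. The authors obtained them by trimming (Trimmomatic 0.36), mapping to GRCz11 and import through tximport. For the mapping, the paper names STAR and a Salmon version other than the Salmon 0.13.1 of the submitters' processing notes. Which aligner's output was deposited is not given in the sources used here. The deposited tables of the authors' own DESeq2 comparisons hold fold changes and p-values, which were not used, and 12 columns of per-sample values, also not used. They supplied symbols, and 23649 features were named in all. The members and lists were chosen with earlier results of these data known.

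CPM were computed after removing 13 mitochondrial genes and 12 features of 8 symbols. For each pair of groups, edgeR 4.0.16 (filterByExpr, TMM, quasi-likelihood test, Benjamini-Hochberg) was run in R 4.3.3 on the counts of the groups compared; SE came from the log2 fold change and the F statistic. The edgeR fit, but not the ranking, was run on simulated counts. The changes planted there were larger than most differences between sorts described here, so that run did not cover smaller ones. Alternatives were DESeq2 1.42.0, the study's tool, RLE factors, no filter, the replicate number as a block, all groups in 1 fit, mitochondrial genes left out, and each library left out; for the list they also covered the pseudocount, TMM, group means and no count minimum. After the data were seen, 2 lists ranked from fewer groups were added. Genes were named by rule: the 20 highest-ranked with a symbol, members on the gene lists, called members, the 2 at each side of the list's edge and members sharing a symbol. Replicate pairs differed by more than sampling noise (chi-square per degree of freedom 6.24 to 169). Sequences were not analysed here. Some members and markers are not reported here.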

Additional observations from a re-analysis of the deposited data

How the results depend on the processing

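In LWS2 vs LWS1, members called, with the share of all features called in the same fit, were 1 higher (1.51%) and 2 lower (1.51%) with DESeq2 and 1 higher (chst2a, 1.26%) and 2 lower (traf3ip1 and prph2la, 1.95%) with no filter on low counts. With each library left out they were 0 to 1 higher and 0 to 2 lower, among them 1 higher (0.683%) and 1 lower (0.818%) without LWS1 replicate 1 and 2 lower (0.392%) without LWS1 replicate 2. In LWS1 vs tdTomato+, DESeq2 (0.338%) and no filter (0.389%) each called 1 higher (TULP1), and 0 were called with any library left out. In LWS2 vs tdTomato+, DESeq2 called 1 higher (1.23%) and no filter 2 (0.923%), and leaving out libraries gave 0 to 5 higher and 0 to 3 lower, the largest counts without tdTomato+ replicate 1 (2.29% and 3.11%). With the replicate block, 1 member was called higher in LWS2 vs LWS1 (1.46%) and 1 in LWS2 vs tdTomato+ (1.34%), chst2a in both. Whether equal replicate numbers mark paired samples is not known. In their deviations from the group mean, same-numbered libraries correlated at 0.18, 0.15 and 0.00 in LWS2 vs LWS1. The values were 0.07, 0.07 and -0.14 in LWS1 vs tdTomato+ and 0.21, 0.13 and -0.02 in LWS2 vs tdTomato+. The same number was the best match for 2, 1 and 1 of 3 libraries in these comparisons. With 3 libraries per group, such values cannot settle the pairing. RLE factors, all groups in 1 fit and the removal of mitochondrial genes gave 0 calls in all 3 comparisons.

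Of the 100 members, 42 stayed with mitochondrial genes kept, 49 with group means, 59 in the list from tdTomato+ and tdTomato- libraries, 56 in that from LWS2, LWS1 and tdTomato- libraries, and 62 to 100 with a library left out. Other settings kept 85 (TMM), 88 (pseudocount of 20), 96 (no count minimum) and 97 (pseudocount of 1). For 31 gene results named in the text, 372 values under alternatives held 0 reversals, 16 losses of an FDR under 0.05 (all of opn4.1 or camk1b) and 21 gains. Causes were not tested. Depth limits the tdTomato- values most, as 3 counts equal 14.4 CPM in its smallest library.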
